A study of Mus musculus with 15 samples.

Results

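Transcripts of 10 neutrophil and antimicrobial genes were followed across 15 samples of mouse dorsal skin. The members were chosen by gene symbol, with earlier results of these data known: S100a8, S100a9, Lcn2, Camp, Ngp, Ltf, Csf3r, Retnlg, Ly6g and Slpi, which are 10 of the 18929 genes in the table. All mice were wild-type male balb/c animals of 4 to 6 weeks. In 4 groups a full-thickness excisional wound of 10 mm or 15 mm was made and filled with Matrigel beads without cells (acellular), or with high density beads of mesenchymal stem cells (HDB, MSCs) placed sparsely among a larger number of cell-free beads, and the fifth group was normal skin. The cells were human umbilical cord MSCs, 84000 in 56 beads for the 10 mm wound and 180000 in 120 beads for the 15 mm wound, and the reads were counted on mouse genes. Each group held 3 samples. According to the methods, sequenced skin was taken after implantation for 4 weeks, although the wound model is described as ending on day 21. Total counts lay between 15840551 and 18404188 per sample. Nothing in the sources says whether samples of a group came from separate mice, so the p-values below measure the spread between these samples, which may be partly technical.

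Neutrophils are short-lived white cells that enter injured skin first and kill microbes with proteins stored in granules. S100a8 and S100a9 encode the pair of calcium-binding proteins that form calprotectin, which withholds zinc and manganese from microbes and is also made by stressed keratinocytes. Lcn2 encodes lipocalin 2, which binds bacterial iron carriers, and Slpi encodes a protease inhibitor that acts against neutrophil elastase; epithelia make both. Camp (cathelicidin), Ngp (neutrophilic granule protein) and Ltf (lactoferrin) encode granule proteins, whose transcripts are made mainly while neutrophils mature in bone marrow. Csf3r encodes the receptor for granulocyte colony-stimulating factor, Retnlg a secreted resistin-like protein, and Ly6g the surface antigen used to define mouse neutrophils.

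The members split evenly by level. Under the count filter, 5 members (S100a8, S100a9, Lcn2, Csf3r and Slpi) held enough reads to be tested, and the other 5 (Camp, Ngp, Ltf, Retnlg and Ly6g) did not. None of the 5 tested members was called between HDB and acellular wounds, and none of the 10 was when all were tested without the filter. Lcn2 and Slpi were called higher over the 4 wound groups than in normal skin, beside 30.9% of all tested genes called in either direction and 14.2% called higher. Neither was called there without any single normal sample. In HDB wounds the main edgeR fit called neither at either size. At 10 mm some edgeR alternatives called Lcn2 and DESeq2 called both, and at 15 mm both were called with only the groups compared. S100a8 and S100a9 reached high levels in a single sample, replicate 2 of the HDB 10 mm group.

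The sequences just upstream of 4 genes are shown because S100a8 and S100a9 had their highest level in the same sample and because Lcn2 and Slpi both passed the test against normal skin. Each is the 250 bases before the RefSeq start on GRCm38.p6, the build named in the submitters' processing notes, printed 5′ to 3′ on the gene's strand. All 10 members matched an entry. Capitals mark matches on either strand to 3 motifs: TATAAA (the TATA box), TTGCNNAA (a C/EBP core, for a factor family of granulocyte and acute-phase genes) and TGANTCA (AP-1).
S100a8, chr3:90668821-90669070, + strand: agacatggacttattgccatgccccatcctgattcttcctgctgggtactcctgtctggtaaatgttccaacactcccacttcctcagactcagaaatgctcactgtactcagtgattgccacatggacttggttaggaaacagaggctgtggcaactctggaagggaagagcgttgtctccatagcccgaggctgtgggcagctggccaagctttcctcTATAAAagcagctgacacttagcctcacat
S100a9, chr3:90695722-90695971, - strand: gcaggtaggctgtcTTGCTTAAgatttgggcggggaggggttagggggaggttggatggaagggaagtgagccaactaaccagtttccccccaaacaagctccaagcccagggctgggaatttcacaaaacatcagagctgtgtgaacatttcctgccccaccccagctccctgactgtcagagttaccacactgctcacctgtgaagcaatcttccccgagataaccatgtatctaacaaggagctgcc
Lcn2, chr2:32387740-32387989, - strand: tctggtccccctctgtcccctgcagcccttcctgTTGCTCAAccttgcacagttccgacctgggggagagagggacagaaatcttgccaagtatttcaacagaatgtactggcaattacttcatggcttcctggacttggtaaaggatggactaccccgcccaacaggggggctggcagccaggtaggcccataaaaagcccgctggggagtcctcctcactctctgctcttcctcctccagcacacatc
Slpi, chr2:164356508-164356757, - strand: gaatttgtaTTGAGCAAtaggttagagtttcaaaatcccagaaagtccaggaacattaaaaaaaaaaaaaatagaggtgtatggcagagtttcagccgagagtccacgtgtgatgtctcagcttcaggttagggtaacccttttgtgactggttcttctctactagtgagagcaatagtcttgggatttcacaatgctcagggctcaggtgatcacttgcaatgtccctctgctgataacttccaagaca

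S100a8 held TATAAA 30 to 25 bases before its start, and 13.0% of 27025 upstream sequences of the same length held that motif on either strand. S100a9, Lcn2 and Slpi held 1 C/EBP match each, as TTGCTTAA, TTGCTCAA and TTGAGCAA (the last on the opposite strand), against 9.55% of all upstream sequences. Among the members not shown, the nearly undetected Ngp, Ltf, Retnlg and Ly6g also held C/EBP matches, while Camp and Csf3r did not. No match to TGANTCA was found in the 4 windows shown, against 6.87% of all. A match is a description of letters, not evidence of binding. S100a8 (chr3:90669071-90670034) and S100a9 (chr3:90692630-90695721) lie in one stretch of chromosome 3, and Lcn2 (chr2:32384637-32387739) and Slpi (chr2:164354070-164356507) lie far apart on chromosome 2.

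Levels are given as CPM, the number of reads of a gene scaled to a fixed total per sample, here after TMM scaling. In normal skin S100a8 stood at 3.65, 1.34 and 2.68 CPM in replicates 1, 2 and 3. In acellular wounds it stood at 1.94, 7.08 and 2.05 CPM at 10 mm and at 7.88, 1.17 and 2.44 CPM at 15 mm. In HDB wounds it stood at 1.01, 72.5 and 3.00 CPM at 10 mm and at 1.71, 0.970 and 1.24 CPM at 15 mm. Apart from replicate 2 of the HDB 10 mm group, with 1347 reads, no sample exceeded 7.88 CPM. The HDB 15 mm samples all lay below the acellular 10 mm samples, and every other pair of groups overlapped. The group means ran from HDB 10 mm (25.5 ± 41 CPM, SD, n = 3) through acellular 15 mm (3.83 ± 3.6), acellular 10 mm (3.69 ± 2.9) and normal skin (2.56 ± 1.2) to HDB 15 mm (1.31 ± 0.38), and no neighbours in that order that were compared passed the test.

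S100a9, whose protein pairs with that of S100a8, stood at 1.90, 1.14 and 2.08 CPM in normal skin. It stood at 1.14, 14.2 and 0.409 CPM in acellular 10 mm wounds and at 0.850, 0.759 and 3.29 CPM in acellular 15 mm wounds. HDB wounds held 0.355, 123 and 5.16 CPM at 10 mm and 1.09, 1.76 and 1.52 CPM at 15 mm. The same HDB 10 mm sample was again highest, now with 2289 reads, and replicate 2 of the acellular 10 mm group came next. The groups overlapped, with means of 42.9 ± 70 CPM in HDB 10 mm, 5.25 ± 7.8 in acellular 10 mm, 1.7 ± 0.50 in normal skin, 1.63 ± 1.4 in acellular 15 mm and 1.46 ± 0.34 in HDB 15 mm wounds (SD, n = 3 each).

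**Figure D1:**
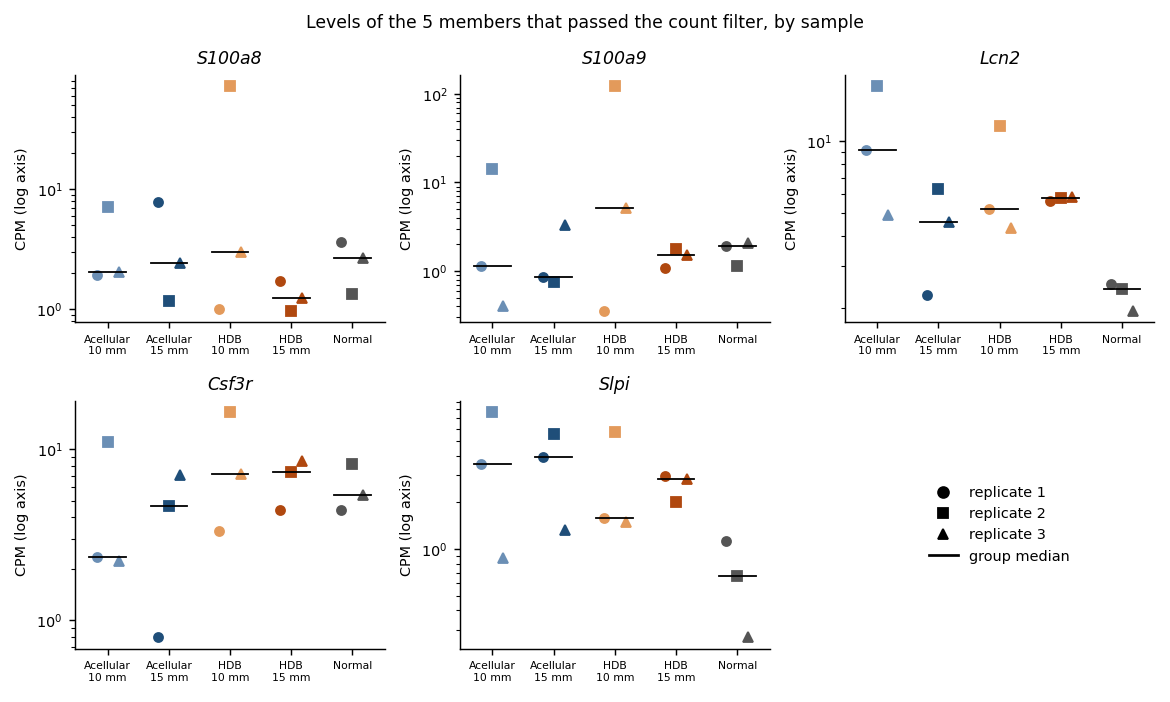
Level of each tested member in every sample (y axis, CPM on a log scale) by group (x axis); symbols give the replicate number and the black line the group median. S100a8 and S100a9 reach 72.5 and 123 CPM in 1 HDB 10 mm sample, while Lcn2 and Slpi lie lowest in normal skin.

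Lcn2 stood at 2.53, 2.41 and 1.95 CPM in normal skin. Acellular wounds held 9.19, 17.0 and 4.91 CPM at 10 mm and 2.27, 6.30 and 4.57 CPM at 15 mm. HDB wounds held 5.21, 11.5 and 4.33 CPM at 10 mm and 5.60, 5.76 and 5.82 CPM at 15 mm. Lcn2 was above every normal sample in 11 of the 12 wound samples, the exception being replicate 1 of the acellular 15 mm group. By mean the order was acellular 10 mm (10.4 ± 6.1 CPM), HDB 10 mm (7.02 ± 3.9), HDB 15 mm (5.72 ± 0.11), acellular 15 mm (4.38 ± 2.0) and normal skin (2.29 ± 0.31; SD, n = 3 each), and no 2 neighbours in it differed at the adjusted threshold.

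Slpi stood in normal skin at 1.12, 0.670 and 0.268 CPM. Acellular wounds held 3.54, 7.69 and 0.877 CPM at 10 mm and 3.97, 5.54 and 1.33 CPM at 15 mm. HDB wounds held 1.60, 5.76 and 1.5 CPM at 10 mm and 2.97, 2.00 and 2.82 CPM at 15 mm. Again 11 of 12 wound samples were above every normal sample, and the exception was replicate 3 of the acellular 10 mm group. Normal skin held only 30 Slpi reads in all 3 samples together, so the size of its difference rests on few reads. Acellular wounds averaged 4.04 ± 3.4 CPM at 10 mm and 3.61 ± 2.1 at 15 mm, HDB wounds 2.95 ± 2.4 at 10 mm and 2.60 ± 0.52 at 15 mm, and normal skin 0.687 ± 0.43 (SD, n = 3 each).

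Csf3r passed the test in no comparison. Normal skin held 4.43, 8.17 and 5.37 CPM. Acellular wounds held 2.34, 11.1 and 2.22 CPM at 10 mm and 0.794, 4.67 and 7.06 CPM at 15 mm. HDB wounds held 3.31, 16.5 and 7.16 CPM at 10 mm and 4.40, 7.34 and 8.53 CPM at 15 mm. Its samples overlapped between every pair of groups, and the means ran from 8.98 ± 6.8 CPM in HDB 10 mm through 6.75 ± 2.1 in HDB 15 mm, 5.99 ± 1.9 in normal skin and 5.21 ± 5.1 in acellular 10 mm to 4.17 ± 3.2 in acellular 15 mm wounds (SD, n = 3 each).

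Divided by the longest transcript's length, the level in normal skin was highest for S100a8, at 5.14 ± 2.3 CPM per kilobase, followed by S100a9 at 3.28 ± 0.96. On the same scale Csf3r stood at 1.72 ± 0.56, Lcn2 at 1.67 ± 0.22 and Slpi at 0.785 ± 0.49 (SD, n = 3 each). In HDB 15 mm wounds the level per kilobase was instead highest for Lcn2, at 4.17 ± 0.082.

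The granule genes were close to undetected. Camp held 51 reads over all 15 samples, of which 18 were in replicate 1 of the acellular 15 mm group. Ltf held 31 reads and at most 9 in a sample, and Ngp held 12 reads with 7 of them in replicate 1 of the HDB 15 mm group. These 3 granule genes were at 0 in 4, 5 and 10 samples, respectively. Retnlg held 15 reads, at most 6 of them in a sample. Ly6g, the defining surface antigen of mouse neutrophils, held 1 read in all, in replicate 2 of the acellular 10 mm group, and was at 0 in the other 14 samples. A count of 0 allows up to 0.159 to 0.182 CPM in a wound sample and 0.201 to 0.211 CPM in a normal sample (3 reads after the same scaling, counting error only). Differences between groups were not detectable for these 5 genes at this depth. Ly6g belongs to a multigene family, and reads it shares with relatives are split by the authors' estimate. The HDB 10 mm sample with 1347 reads of S100a8 and 2289 of S100a9 held 2 reads of Camp, 2 of Ltf, 6 of Retnlg and 0 of both Ngp and Ly6g.

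**Figure D2:**
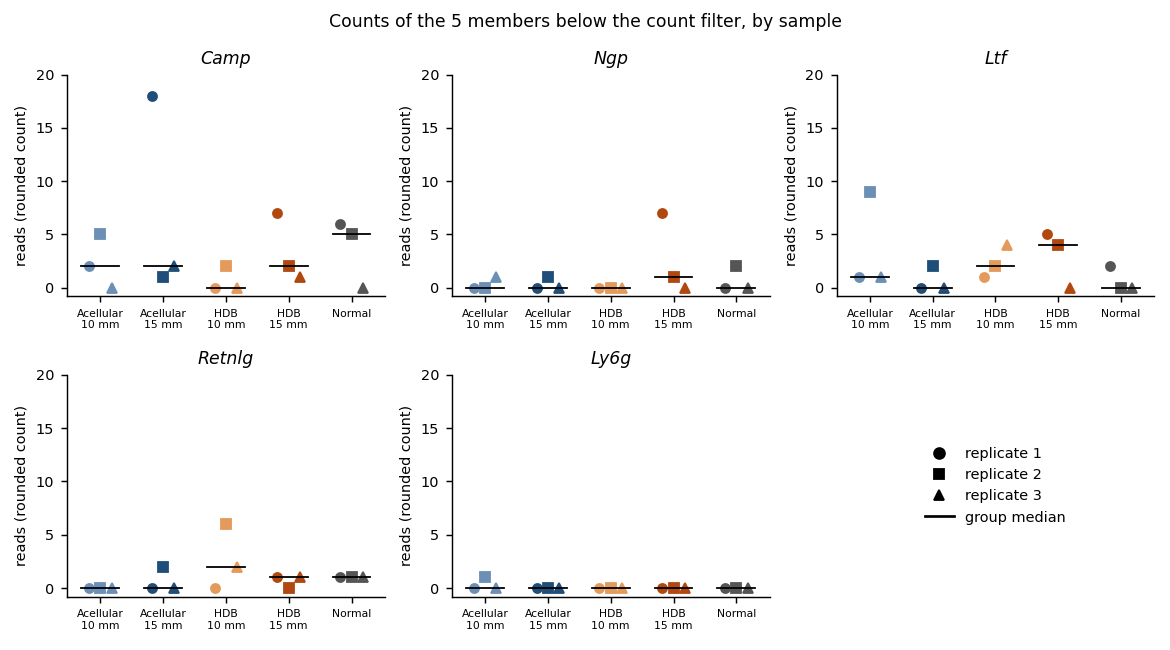
Rounded read counts of Camp, Ngp, Ltf, Retnlg and Ly6g in every sample (y axis, linear) by group (x axis); symbols give the replicate number and the black line the group median. No sample holds more than 18 reads of any of these genes, and Ly6g has a single read.

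The first comparison asked whether MSCs in the beads changed these genes in the wound. At 10 mm, edgeR's quasi-likelihood test called 0 of 5 tested members and 0 of 15369 genes (0%), although 543 genes and 1 member, S100a8, had an unadjusted p under 0.05, and DESeq2 called 15 genes and 0 members. At 15 mm it called 0 of 5 members, against 450 genes (2.93%; 179 with the replicate block), with 3567 genes and 0 members under an unadjusted p of 0.05 and 1770 genes and 0 members called by DESeq2. That gene count was 0 without any single HDB 15 mm sample or with only the groups compared, 152 without acellular replicate 1 and 2322 without acellular replicate 3. Over both sizes it called 0 members and 0 genes (0%), with 2428 genes and 0 members under an unadjusted p of 0.05 and 223 genes and 0 members called by DESeq2, but 229 genes were called without acellular 15 mm replicate 3. The treatment by size interaction called 0 members and 0 genes (0%), with 2063 genes and 1 member under an unadjusted p of 0.05 and 595 genes and 0 members called by DESeq2, and 1 gene was called without acellular 15 mm replicate 2.

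S100a8 had the smallest p of the members at 10 mm. Its log2 fold change, HDB over acellular, was 2.79 ± 1.23 (SE), with a 95% interval from 0.11 to 5.46 and an edgeR adjusted p of 1.00 (unadjusted 0.0426). S100a9 had a log2 fold change of 3.03 ± 1.52, with an interval from -0.27 to 6.32. Without replicate 2 of the HDB 10 mm group these values turned to -0.86 and -0.90. Without replicate 2 of both 10 mm groups, a choice made after seeing the data, they were 0.02 and 1.84. At 15 mm the values were -1.54 ± 1.25 for S100a8 and -0.17 ± 1.57 for S100a9, with edgeR adjusted p of 0.478 and 0.958. The S100a8 interaction was -4.33 ± 1.75 (edgeR adjusted p = 0.303, unadjusted 0.0286).

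The intervals for the other tested members were narrower. Lcn2 differed by -0.56 ± 0.47 at 10 mm (95% interval -1.59 to 0.46) and by 0.39 ± 0.48 at 15 mm (-0.65 to 1.42). Slpi differed by -0.45 ± 0.76 at 10 mm (-2.09 to 1.19) and by -0.47 ± 0.76 at 15 mm (-2.12 to 1.18). Csf3r differed by 0.79 ± 0.78 at 10 mm (-0.91 to 2.48) and by 0.69 ± 0.79 at 15 mm (-1.01 to 2.40). Each interval holds 0 and also changes of more than 2-fold in at least one direction, so these data bound the effect of HDB on these genes only loosely. Over both sizes, exact two-sided permutation tests of mean log2 CPM with labels permuted within size (400 arrangements, smallest possible p 0.005) gave p of 0.98 for S100a8, 0.58 for S100a9, 0.975 for Lcn2, 0.17 for Csf3r and 0.635 for Slpi, and 0.98 for each after adjustment over 15 such tests. Within a size, 3 against 3 samples cannot give an exact p below 0.1.

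**Figure D3:**
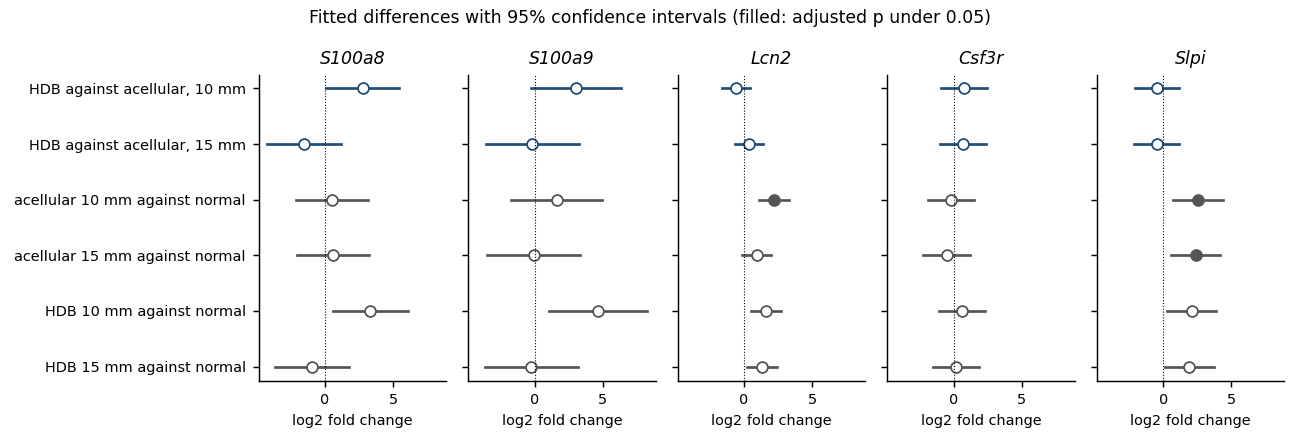
Fitted log2 fold change (x axis) of the 5 tested members in 6 comparisons (y axis), with 95% confidence intervals; filled points had an edgeR adjusted p under 0.05. Against normal skin, filled points occur for Lcn2 in acellular 10 mm wounds and for Slpi in acellular wounds of both sizes, while the HDB against acellular estimates are all open.

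The second comparison set each wound group against normal skin, and here Lcn2 rose in acellular 10 mm wounds and Slpi in acellular wounds of both sizes. In acellular 10 mm wounds 2 of 5 members were called, both higher, against 20.3% of all genes in either direction and 9.77% called higher. In acellular 15 mm wounds 1 of 5 was called, also higher, against 30.2% in either direction and 17.6% called higher. In HDB wounds the main edgeR fit called 0 of 5 at either size, against 12.3% of genes at 10 mm and 5.18% at 15 mm. It gave 4 and 2 members under an unadjusted p of 0.05, beside 4862 and 4133 of the 15369 genes. DESeq2 called 4 and 0 members at the 2 sizes, beside 3288 and 2349 of 18929 genes. For the mean of the 4 wound groups 2 of 5 were called, both higher, against 30.9% of genes in either direction and 14.2% called higher. Whether 2 of 5 exceeds that share was not tested. These backgrounds moved when single samples were left out, from 1895 genes to between 78 and 2725 in HDB 10 mm, from 796 to between 34 and 1340 in HDB 15 mm and from 3125 to between 800 and 1853 in acellular 10 mm wounds. In acellular 15 mm wounds 4642 genes became 2304 to 2777 without any single normal sample, and over the 4 wound groups 4746 became 1848 to 2521.

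Lcn2 rose in acellular 10 mm wounds by 2.17 ± 0.50 on the log2 scale (edgeR adjusted p = 0.0146, 0.000382 to 0.0630 over the alternatives) and was above every normal sample in 3 of 3. The call was lost without replicate 2 (adjusted p = 0.0532) or replicate 3 (0.0630) of normal skin. In acellular 15 mm wounds its log2 fold change was 0.93 ± 0.49 (edgeR adjusted p = 0.164). HDB wounds gave 1.61 ± 0.50 at 10 mm (0.0520, 0.0133 to 0.218 over the alternatives) and 1.32 ± 0.49 at 15 mm (0.117, 0.0108 to 0.287). Across the 4 wound groups it rose by 1.51 ± 0.43 (adjusted p = 0.0205), and an exact two-sided permutation test of 12 wound against 3 normal samples gave p = 0.00879 (0.0220 over 5 such tests; smallest possible 0.00220). The edgeR call over the 4 groups was lost without any single normal sample (adjusted p from 0.0648 to 0.0963).

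Slpi rose by 2.55 ± 0.84 in acellular 10 mm (edgeR adjusted p = 0.0490, 0.0102 to 0.175 over the alternatives) and by 2.38 ± 0.84 in acellular 15 mm wounds (0.0477, 0.0135 to 0.152). Both calls sat at the edge of the threshold and were lost when any single normal sample was left out (adjusted p from 0.0659 to 0.155). The 10 mm call was also lost without acellular replicate 1 (0.104) or 2 (0.175), and the 15 mm call without acellular replicate 1 (0.0905) or 2 (0.122). Slpi had log2 fold changes of 2.10 ± 0.83 in HDB 10 mm (0.109, 0.0466 to 0.417 over the alternatives) and 1.91 ± 0.83 in HDB 15 mm wounds (0.165, 0.0297 to 0.378). Across the 4 groups it rose by 2.24 ± 0.74 (0.0375), with an exact permutation p of 0.00440 (0.0220 over 5 tests). That edgeR call was lost without any single normal sample (adjusted p from 0.0633 to 0.153), without replicate 1 of acellular 10 mm (0.0512) and without replicate 1 (0.0556) or 3 (0.0545) of HDB 15 mm. Because Lcn2 in HDB and acellular wounds was compared with the same normal samples, and the HDB against acellular tests called neither gene, a call in 1 wound type and not in the other shows no difference between them.

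By rank alone, every sample was above every normal sample for Lcn2 in the smaller and for Slpi in the larger acellular wounds, and for both genes in HDB wounds of either size. Over all tested genes this held for 29.1% and 22.5% in the 10 mm and 15 mm acellular groups and for 25.7% and 23.8% in the HDB groups, so 1 or 2 of 5 members is near the background.

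With all samples, S100a8, S100a9 and Csf3r were not called against normal skin in any wound group by edgeR. In HDB 10 mm wounds the log2 fold change was 3.32 ± 1.27 for S100a8 (adjusted p = 0.10) and 4.65 ± 1.67 for S100a9 (0.0823), and it was -0.34 and 0.70 without replicate 2 of that group. Without replicate 1 of that group edgeR called both (3.90 and 5.25, adjusted p of 0.0338 and 0.0288) and Lcn2. DESeq2 called both with all samples, with adjusted p of 0.0172 and 0.0119. For Csf3r the mean of the 4 wound groups differed from normal skin by 0.01 ± 0.62, with a 95% interval from -1.34 to 1.36.

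Levels of genes that mark tissues also differed between wound and normal libraries. The summed level of 6 skeletal muscle genes was 37743 to 41032 CPM in normal skin and 455 to 27406 CPM in the wound samples. Across the 4 wound groups 0 of these 6 genes were called. Of 7 skin-defining genes, Krt5 and Krt14 (basal keratinocytes) were called higher and Krt10 (suprabasal keratinocytes) lower across the 4 wound groups, and the labelled tissue was borne out by Krt5 at 2225 CPM or more in every sample. Of 6 wound-keratinocyte genes, 5 were tested and 3 (Krt16, Krt6a and Sprr1b) rose across the 4 wound groups, where 14.2% of all tested genes were called higher and 16.7% lower. Of these 6 skin calls only Krt16 remained when each sample was left out in turn. The Krt6a call was lost in 8 and the Krt10 call in 12 of 15 such cases, the Sprr1b call without any single normal sample, and the Krt5 and Krt14 calls without normal replicate 2 or 3. In bulk tissue fewer cells of a type and less RNA per cell cannot be told apart, and the part of tissue makeup in the Lcn2 and Slpi differences was not tested.

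Wound size was the third comparison. Within acellular wounds edgeR called 0 of 5 members and 0 genes (0%), with 2684 genes and 1 member, Lcn2, under an unadjusted p of 0.05, while DESeq2 called 706 genes and 0 members, and edgeR called 526 genes without acellular 15 mm replicate 3. Within HDB wounds it called 0 of 5 and 0 genes (0%), with 1896 genes and 2 members under an unadjusted p of 0.05. Those members were S100a8 (15 mm over 10 mm, -4.28 ± 1.34, adjusted p = 0.251) and S100a9 (-4.88 ± 1.68, 0.282), and DESeq2 called both among 376 genes. Without replicate 2 of the HDB 10 mm group the values shrank to -0.62 and -0.93. The Lcn2 log2 fold change, 15 mm over 10 mm in acellular wounds, was -1.24 ± 0.48 (edgeR adjusted p = 0.225), and the samples overlapped.

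The sample that carried S100a8 and S100a9 was followed through the rest of the neutrophil programme. Replicate 2 of the HDB 10 mm group held the highest level among all 15 samples for 3 of the 5 tested members (S100a8, S100a9 and Csf3r), and replicate 2 of the acellular 10 mm group for the other 2 (Lcn2 and Slpi). Of 14 other neutrophil genes that passed the filter, 7 peaked in the same HDB sample (Mpo, Mmp9, Cxcr2, Fpr2, Trem1, Clec4d and Hdc), whereas 5.73% of all tested genes did. Of 8 tested genes for cytokines and chemokines that recruit neutrophils, 4 peaked there (Cxcl2, Il1a, Il1b and Il1f9). That sample was picked for its S100a8 and S100a9 levels, and it helped genes such as Trem1 to pass the filter. These counts therefore describe the sample and are not a test.

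Il1b, the gene of the inflammatory cytokine interleukin-1 beta, stood at 219 CPM in that sample and at 1.08 to 23.7 CPM in the other 14. Trem1, an activating receptor of neutrophils and monocytes, stood at 13.3 CPM there and at no more than 1.29 CPM elsewhere. Cxcl2, a neutrophil-attracting chemokine, stood at 44.5 CPM there, 11.8 CPM in replicate 2 of the acellular 10 mm group and no more than 1.86 CPM in the rest. The summed levels of the HDB and acellular 10 mm samples numbered 2 ranked first and second for the members (230 and 57.9 CPM) and the recruitment genes (316 and 72.3). For the other neutrophil genes the HDB sample was again first (219 CPM), but the acellular sample and replicate 2 of normal skin were both at 163 CPM. Neutrophil and recruitment genes too low to be tested were mixed in the HDB sample. Mmp8 (0.969 CPM), Fpr1 (0.915 CPM), Csf3 (2.15 CPM) and the member Retnlg (0.323 CPM) had their highest level there, whereas Elane and Ctsg were at 0 and Cd177 at 0.0538 CPM, and these 3 were low in every sample.

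The same HDB 10 mm sample was also low in skeletal muscle (563 CPM, 14th of 15 in rank) and erythrocyte genes (49.3 CPM, lowest of 15), and was 10th of 15 for 8 macrophage genes (181 CPM). Of keratinocyte genes, Krt6b (79.5 CPM) and Krt1 (1314 CPM) had their highest level there. The 6 wound-keratinocyte genes summed to 598 CPM, 5th of 15, and the skin-defining genes ranked 3rd. The part of these differences in its S100a8 and S100a9 levels was not tested. Its log2 CPM values correlated with those of its group's other samples at 0.923 and 0.967 over genes, against 0.963 between those 2, and genes are not independent replicates.

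**Figure D4:**
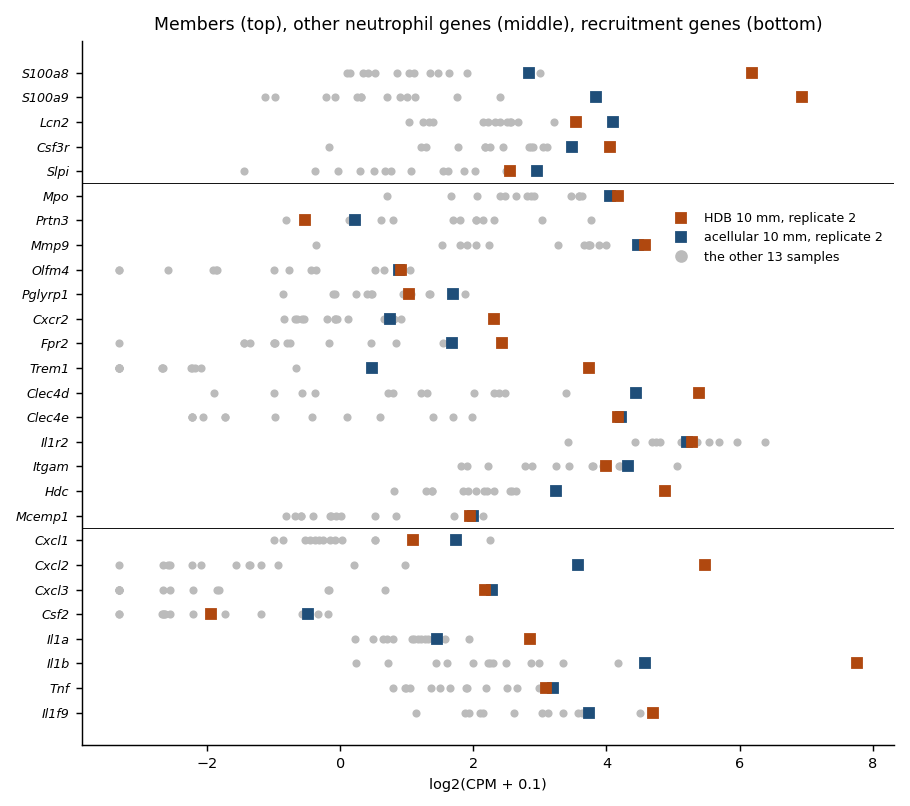
Level of each tested member, other neutrophil gene and recruitment gene (y axis) as log2(CPM + 0.1) (x axis); orange squares mark replicate 2 of HDB 10 mm wounds, blue squares replicate 2 of acellular 10 mm wounds and grey points the other 13 samples. The orange square lies farthest right for S100a8, S100a9, Trem1, Cxcl2 and Il1b, and not for Prtn3 or Il1r2.

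The other neutrophil genes did not follow 1 direction against normal skin. Across the 4 wound groups, where 14.2% of all genes were called higher and 16.7% lower, 1 of 14 rose, Olfm4 (olfactomedin 4, in a subset of neutrophils; 4.91 ± 1.38, edgeR adjusted p = 0.0196), and 2 fell, Prtn3 (proteinase 3; -2.08 ± 0.50, 0.0101) and Il1r2 (the decoy receptor of interleukin-1; -1.06 ± 0.27, 0.0138). Olfm4 held 1 read in normal skin (0, 0.067 and 0 CPM) and 0.167 to 1.98 CPM in wounds, so the size of its rise rests on few reads. The median over the list was 0.75, beside 0.04 over all genes. Il1r2 and Itgam (integrin alpha M) had the highest mean level of the list, and Il1r2 stood at 51.4, 83.8 and 62.3 CPM in normal skin and at 10.6 to 46.6 CPM in wounds. Against acellular wounds 0 of 14 were called in HDB wounds at either size.

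Of the recruitment genes, Cxcl1 rose in acellular 10 mm wounds (2.34 ± 0.62, edgeR adjusted p = 0.0227) and Il1b in HDB 10 mm wounds (5.08 ± 1.31, 0.0313), and 0 of 8 were called across the 4 wound groups. In HDB 10 mm wounds Il1b stood at 4.56, 219 and 17.9 CPM, and without replicate 2 its log2 fold change was 2.25 and no longer called (edgeR adjusted p = 0.174). The Il1b call was also lost without replicate 3 or any single normal sample, and the Cxcl1 call without acellular replicate 2 or 3 or any single normal sample. Il1b and Il1f9 (interleukin-36 gamma) had the highest mean level. HDB against acellular called 0 of 8 at either size.

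Of 11 tested epithelial antimicrobial genes 5 were called across the 4 wound groups, beside 30.9% of all genes. Of these 4 rose, beside 14.2% of all genes called higher: Defb6 (a beta-defensin; 1.15 ± 0.23), Pglyrp3 (a peptidoglycan-binding protein; 0.93 ± 0.28), S100a7a (a relative of S100a8; 0.93 ± 0.24) and Wfdc18 (2.95 ± 0.97), while Wfdc5 fell (-1.52 ± 0.42); these 2 are, like Slpi, proteins with whey acidic protein domains. Their edgeR adjusted p ran from 0.00507 to 0.0366. The list's median was 0.58. Defb6 and Rnase4 (an antimicrobial ribonuclease) were the most abundant of the list. Defb6 was at 43.6, 36.6 and 35.6 CPM in normal skin and at 139, 179 and 123 CPM in acellular 10 mm wounds, whose samples were all higher. Acellular 15 mm wounds held 33.1, 65.8 and 65.0 CPM, the first below every normal sample. HDB wounds held 72.5, 136 and 98.4 CPM at 10 mm and 67.4, 57.0 and 74.5 CPM at 15 mm. Defb6 was called in neither 15 mm group. HDB against acellular called 0 of 11 at either size.

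All 6 receptors reported for the members' proteins were tested. Across the 4 wound groups 2 fell, Bsg (basigin, a receptor for S100A9; -0.56 ± 0.10, edgeR adjusted p = 0.00376) and Cd36 (a fatty acid transporter; -0.88 ± 0.30, 0.0425), and 0 rose, beside 16.7% of all genes called lower and 14.2% higher. The Cd36 call was lost in 11 of 15 cases when each sample was left out in turn. Tlr4, the toll-like receptor bound by calprotectin, fell in acellular 10 mm wounds (-1.37 ± 0.36, 0.0215), a call lost without acellular replicate 1 or 3 or normal replicate 2 or 3 (adjusted p up to 0.0817). Bsg and Cd36 were the most abundant of the 6. HDB against acellular called 0 of 6 at either size. Of the 10 genes of these 4 lists called across the 4 wound groups, Defb6 and Bsg remained called when each sample was left out in turn, and the other 8 lost the call in at least 1 case, each of them without at least 1 normal sample.

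Genes of other cell types were called as well, beside the 14.2% of all genes called higher and 16.7% lower. Of 8 macrophage genes 7 fell across the 4 wound groups (Csf1r and Mrc1 the most abundant), of 4 tested erythrocyte genes 3 fell (Hba-a1, Hba-a2 and Alas2), and of 8 hair shaft keratins 2 rose (Krt35 and Krt83). Of these 12 calls, Cd163 and Mrc1 remained when each sample was left out in turn. Of the other 10, the Adgre1 call was lost in 8 of 15 cases, Hba-a1 and Hba-a2 in 7 each, Krt83 in 12, Alas2 in 4, Krt35 in 3, and C1qa, C1qb, C1qc and Csf1r in 1 or 2. All 8 hair keratins peaked in replicate 1 of the acellular 15 mm group (12139 CPM summed), the sample with the lowest Csf3r and the second highest S100a8 level. This library stood apart more widely: 29.4% of all tested genes had their highest level in it, and its log2 CPM values correlated over genes at 0.917 and 0.853 with the other samples of its group. Of 6 skeletal muscle genes 0 were called.

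Members were then compared with each other over the 15 samples, on the log2 CPM scale, in 10 pairs with permutation tests (100000 resamples) adjusted over the 10. S100a8 and S100a9 gave Pearson r = 0.832 (permutation p = 0.0025, adjusted 0.0123) and Spearman rho = 0.575 (0.0272, adjusted 0.0908), and r = 0.765 without the 2 samples farthest from the median of S100a8. S100a9 and Csf3r gave r = 0.699 (permutation p = 0.0069, adjusted 0.0229) and rho = 0.718 (0.0036, adjusted 0.0182), and r = 0.552 without the 2 farthest samples. Lcn2 and Slpi gave r = 0.754 (permutation p = 0.0012, adjusted 0.0123) and rho = 0.761 (0.0015, adjusted 0.0148), and r = 0.577 without the 2 farthest. These were the 3 pairs whose r passed after adjustment. With each sample taken as its deviation from its group mean, the 3 values of r were 0.832, 0.733 and 0.716, and 2 other pairs were of like size, Lcn2 and Csf3r at 0.803 and S100a9 and Lcn2 at 0.684. Before the group means were removed, r was 0.415 for Lcn2 and Csf3r (permutation p = 0.122, adjusted 0.244) and 0.493 for S100a9 and Lcn2 (0.0645, adjusted 0.161), and 0.379 and -0.179 without the 2 farthest samples. S100a8 and Csf3r gave r = 0.237 (permutation p = 0.367) and rho = 0.0821 (0.773).

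The 5 other genes with the highest r were listed for 4 members, with no p, since they were picked for their r among all tested genes. For Csf3r they included Cd53, Fcer1g, Tyrobp and Arl11, with r from 0.947 to 0.973 over 15 samples and from 0.945 to 0.965 without the 2 farthest samples. Tyrobp and Fcer1g encode signalling adaptors shared by myeloid cells, and Cd53 is a membrane protein of white blood cells.

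For S100a8 the list was Cxcr2 (a neutrophil chemokine receptor), Trem1, Dhcr7, Ceacam19 and Casp14 (a protease of cornifying keratinocytes), with r from 0.750 to 0.851 and from 0.351 to 0.623 without the 2 farthest samples. Trem1 fell from r = 0.828 to 0.441 without replicate 2 of the HDB 10 mm group. For Lcn2 it was Tor4a, Apoc1, Tmem19, Tnfrsf18 and Defb6 (r from 0.895 to 0.921), and for Slpi it was Atp6v1a, Pcdhga9, Dnase2a, Pld3 and Slc7a6os (r from 0.877 to 0.920). All these values share the same 15 libraries, and wound and normal samples are pooled in them.

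**Figure D5:**
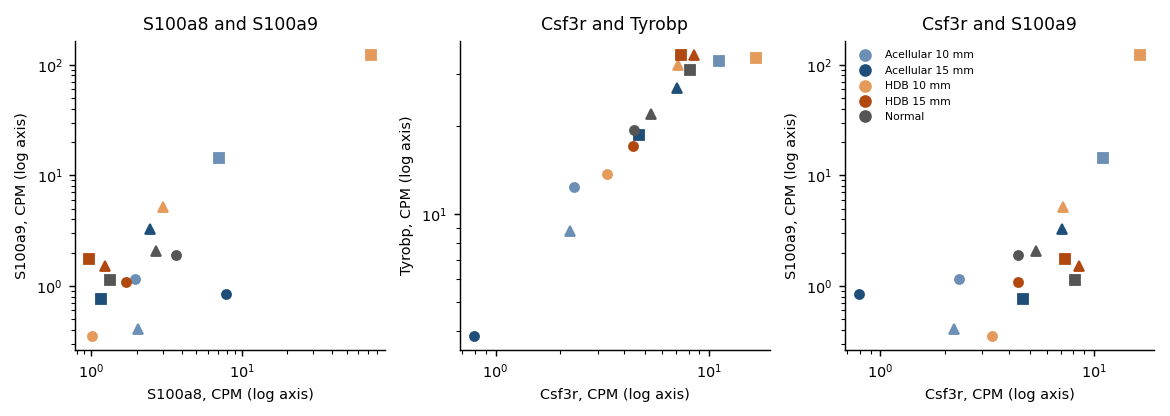
Levels of S100a8 against S100a9, Csf3r against Tyrobp and Csf3r against S100a9 in each of the 15 samples (both axes CPM on a log scale; colour gives the group, symbol the replicate number). Csf3r and Tyrobp lie along a line through all groups, while 1 HDB 10 mm sample sits far above the rest in S100a8 and S100a9.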

How the data were processed

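RNA sequencing of 15 mouse skin samples gave a table of estimated counts (expected counts, not normalized) for 18929 genes, deposited by the authors. The submitters' processing notes name HISAT2 2.0.4, Bowtie2 2.2.5, RSEM 1.2.12 and GRCm38.p6 without their roles. Counts were rounded. The counts were fitted with edgeR 4.0.16 under R 4.3.3, by TMM scaling, filterByExpr (15369 genes kept), 1 fit of 5 group means and the quasi-likelihood test, with Benjamini-Hochberg adjustment over all tested genes and a threshold of 0.05. Log2 CPM used a prior count of 2. The pipeline was tested on simulated data.

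The rule named all 10 members in every comparison, and the 5 under the filter are given as counts. From each other list the rule named the 2 genes with the highest mean CPM and every gene called in HDB against acellular (none was called). Of these, Acta1 and Myh4 (skeletal muscle) and Krt33a (hair shaft) are given only within sums. Likeness was listed for S100a8, Lcn2, Slpi and Csf3r. A gene of the Csf3r list is not reported here. Genes named beyond this rule were chosen after their values were seen. Members and lists were chosen with earlier results of these data known. Lists covered other neutrophil, recruitment, epithelial antimicrobial, receptor, wound keratinocyte, skin, hair shaft, macrophage, erythrocyte and skeletal muscle genes.

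Alternatives were DESeq2 1.42.0, no filter, a mean of at least 50 counts, RLE scaling, only the groups compared, a replicate block, each sample left out, a log2 fold change of at least 1, and removal of each sample's trend with transcript length. Same-number samples of acellular and HDB 15 mm groups deviated together (r = 0.397, 0.167 and 0.183). The main fit used no pairing, and the replicate block entered the sample number for all 15 samples. Depth differed little between samples and limits the genes with few reads most. All replicates of a group differed beyond sampling noise.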

Additional observations from a re-analysis of the deposited data

How the results depend on the processing

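No member was called in HDB against acellular wounds or in the interaction under any alternative, the replicate block included (0 of 5 at 15 mm with the block). Slpi in acellular 10 mm wounds was lost under RLE scaling, no filter and without both 10 mm samples numbered 2 (a choice made after seeing the data), and was not tested under the stricter filter, which it did not pass, leaving 1 called member, Lcn2, in each; leaving out single samples gave 0 to 2. In acellular 15 mm wounds 0 were called under no filter, the stricter filter (Slpi not tested) and only the groups compared, and 0 to 1 when single samples were left out. In HDB 10 mm wounds against normal skin Lcn2 alone was called (1) with the length trend removed, with and without the replicate block, under the replicate block, the stricter filter and only the groups compared; DESeq2 called 4, and leaving out single samples gave 0 to 3. In HDB 15 mm wounds only the groups compared gave 2. For the 4 wound groups together the stricter filter, which Slpi did not pass, gave 1, and single samples left out gave 0 to 2. For wound size in HDB wounds DESeq2 called 2.

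Some log2 fold changes of members that were not called changed sign. Without both 10 mm samples numbered 2, S100a8 stood at -0.77 (HDB against acellular, both sizes), -0.27 (4 wound groups) and -0.34 (HDB 10 mm against normal), and S100a9 at -0.17 (4 wound groups). Csf3r over the 4 wound groups, near 0, was -0.47 without those samples, -0.00053 by DESeq2, -0.0010 under RLE scaling, -0.0075 with the length trend removed, -0.19 with the replicate block added and -0.17 under the replicate block alone. Leaving out single samples gave ranges of -0.86 to 3.67 (S100a8, 10 mm), -1.21 to 1.16 (S100a8, both sizes), -0.049 to 1.21 (S100a8, wounds), -0.34 to 3.90 (S100a8, HDB 10 mm against normal), -0.90 to 5.77 (S100a9, 10 mm), -0.51 to 0.85 (S100a9, 15 mm), -0.55 to 2.80 (S100a9, both sizes), -0.36 to 0.19 (Lcn2, both sizes), -0.29 to 0.30 (Csf3r, wounds) and -1.36 to 0.42 (Slpi, 10 mm). The cause of these changes was not tested. The count filter left 5 members untested.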
